A study of Mus musculus with 56 samples.

Results

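The cells described here were mouse embryonic fibroblasts on day 3 of reprogramming that had kept the fibroblast surface protein Thy1, with and without knockdown of Ctcf. They came from OG2 embryonic fibroblasts (OG2-MEFs), which carry a GFP reporter driven by Oct4 sequences, and were sorted as Thy1+ after induction of Oct4, Sox2, Klf4 and Myc (OSKM). Per the labels' protocols, an inducible polycistronic OSKM lentivirus was delivered with rtTA, the doxycycline-dependent activator, and cells were kept in embryonic stem cell medium with vitamin C. One group, D3_shCTCF_Thy1+, received an shRNA against Ctcf, and the other, D3_shLuci_Thy1+, an shRNA against luciferase as control. OSKM induction, the day and the Thy1 sort were thus common to both groups. Each group had 2 libraries of total RNA, which makes 4 of the 44 libraries of the sorted-cell table and of the 56 samples of the series. The other 40 libraries of the table are day 0 cells, day 3, 6 and 9 cells sorted as Thy1+, SSEA1-Thy1- or SSEA1+, and day 12 GFP+ cells, each with either shRNA. All 13451 gene rows of the table were used, and its 819 repeat rows were not. The labels do not say whether the 2 libraries of a group came from separate cultures, so p-values measure only the spread between these samples, which may be technical.

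CTCF is a zinc finger protein that binds DNA at a long, oriented motif. It stops the cohesin ring as it extrudes chromatin, which sets the anchors of loops and the borders of topological domains, and it can insulate a promoter from enhancers on the other side of its site. In reprogramming, most fibroblasts keep Thy1 for some days, while a smaller share loses it and later gains SSEA1. Day 3 Thy1+ cells are therefore the cells that still carry the somatic surface state.

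Values are normalized scores. From their values they appear to be rounded tag counts per gene, scaled so that all libraries of the table have nearly the same distribution. Totals over all rows were 31789427 to 31792776 in the 4 libraries and 31777102 to 31798964 in all 44, so the scores no longer show the sequencing depth, which is unknown here. Changes are log2 fold changes, Ctcf shRNA minus control shRNA, of log2(score + 1), with the standard error (SE) of limma. Adjusted p-values are limma's, with Benjamini-Hochberg adjustment over all 13451 genes, and a gene is called, that is said to rise or fall, when its adjusted p is below 0.05. The spread between replicates was estimated from all 44 libraries, because 2 against 2 alone cannot give an exact permutation p below 0.333. The typical difference between the 2 knockdown libraries was 0.228, the third widest of 22 groups, and that between the 2 control libraries was 0.160. This is the median absolute deviation of the log2 difference over genes with a mean score of at least 496 in all 44 libraries. Genes of lower score are not part of it.

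The targeted gene and the sort marker followed the labels. Ctcf scored 909 and 827 in the control libraries and 537 and 488 in the knockdown libraries. The groups did not overlap, and 59.0% of the control mean was left (log2 change -0.76, SE 0.086, adjusted p = 4.78e-06). Over the other 10 populations of the table the Ctcf change ran from -1.81 to -0.52, and 1 of them, day 0, had a smaller decrease. Thy1, the sort marker, scored 3504 and 4287 in control and 3809 and 4108 in knockdown libraries, against 202 to 252 in the 8 other day 3 libraries. The fibroblast matrix genes summed to scores of 400108 and 350763 in control and 416290 and 328322 in knockdown libraries, with overlap. None of the 4 reprogramming factors was called: the change was 0.06 (SE 0.195) for Pou5f1 (Oct4), 0.09 (SE 0.180) for Sox2, 0.06 (SE 0.145) for Klf4 and 0.15 (SE 0.137) for Myc, where transgene and endogenous RNA cannot be told apart. Of 29 pluripotency genes 0 were called by limma, and Nanog stayed at scores of 3 to 10 in all 4 libraries.

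Ctcf knockdown changed 541 of the 13451 genes (4.02%) in these cells: 196 rose (1.46%) and 345 fell (2.56%). The changes were moderate. The median absolute log2 change was 0.54 among the genes that rose and 0.55 among those that fell, and 73 called genes (23 higher, 50 lower) changed by at least 1 on the log2 scale. The libraries of the groups did not overlap in 540 of the 541 called genes, against 38.9% of all genes. The test itself favours this, since it calls genes whose groups lie apart. The median change over all genes was 0.00, percentiles 5 and 95 lay at -0.52 and 0.44, and 50.1% of genes had a positive and 49.1% a negative change. The scores appear, from their values, to be scaled to nearly the same distribution. Such scaling holds the median change near 0, so a shift common to all genes could not be seen. Single libraries and the choice of libraries for the spread weighed on the count. A fit of limma to the 4 libraries alone called 0 genes, with 1505 at an unadjusted p below 0.05, and a fit to the 12 day 3 libraries called 258. Without the second knockdown library 297 genes were called, without the first control library 223, without the second control library 239 and without the first knockdown library 405. Of the 541 genes, 108 (36 higher, 72 lower) were called also in each of these 4 fits.

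**Figure D1:**
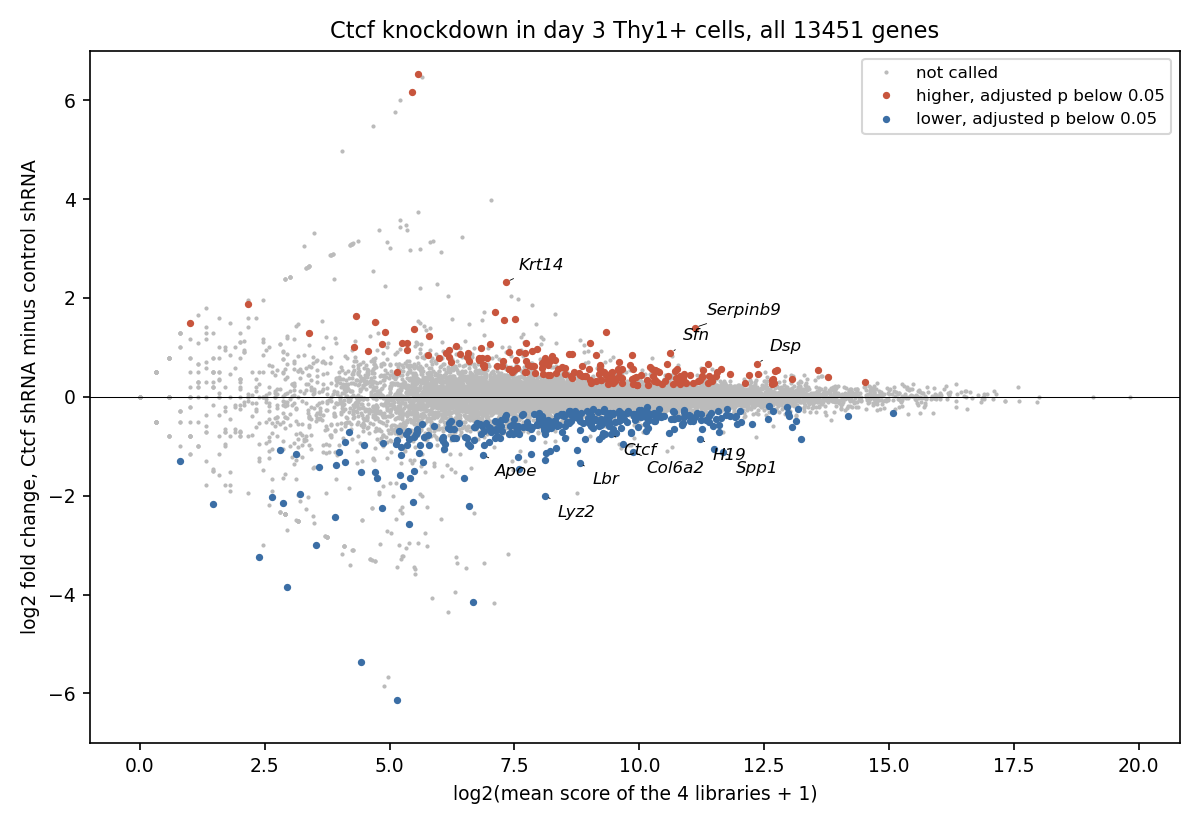
Each point is 1 of 13451 genes. The x axis is log2 of the mean score of the 4 day 3 Thy1+ libraries plus 1, the y axis the log2 fold change of Ctcf shRNA minus control shRNA, and coloured points have an adjusted p below 0.05. The called genes span the whole range of levels, with 345 lower and 196 higher, and most lie within 1 of no change on the y axis.

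The conserved core of the CTCF motif, with its unspecified positions left free, was searched on both strands of RefSeq promoters of 300 bases, from 250 bases before to 50 after each gene's start (GRCm38.p6). It is a description of letters and says nothing of binding. Of 27025 genes with a promoter in the table, 2.82% held it, as did 3.3% of the 10270 tested genes with a promoter. Among the genes that rose it was present in 10 of 155 (6.45%), among those that fell in 11 of 258 (4.26%), and among genes not called in 3.23%. None of the 21 genes with a promoter among the 24 genes described next held it, and 4 of the 67 named called genes with a promoter did. Those 4 are shown because their changes are described below, 2 that fell and 2 that rose, 5′ to 3′ on the gene's own strand, with the motif in capitals. The sequences are those of RefSeq, build GRCm38.p6. Fgf7 lies at chr2:126034408-126034707 (+), Igfbp4 at chr11:99040994-99041293 (+), Bbc3 at chr7:16310011-16310310 (+) and Mdm2 at chr10:117710709-117711008 (-), where the motif occurs in 2 places 1 base apart.
Fgf7: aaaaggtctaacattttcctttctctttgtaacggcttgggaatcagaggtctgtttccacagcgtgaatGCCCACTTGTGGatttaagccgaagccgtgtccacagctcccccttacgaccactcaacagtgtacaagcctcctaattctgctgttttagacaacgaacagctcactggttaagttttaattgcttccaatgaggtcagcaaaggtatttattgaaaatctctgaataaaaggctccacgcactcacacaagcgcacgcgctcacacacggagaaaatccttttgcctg
Igfbp4: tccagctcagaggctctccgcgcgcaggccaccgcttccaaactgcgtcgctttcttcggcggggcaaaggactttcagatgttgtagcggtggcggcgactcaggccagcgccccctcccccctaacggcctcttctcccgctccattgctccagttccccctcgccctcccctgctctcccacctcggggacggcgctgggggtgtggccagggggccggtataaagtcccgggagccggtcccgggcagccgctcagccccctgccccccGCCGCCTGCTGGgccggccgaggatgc
Bbc3: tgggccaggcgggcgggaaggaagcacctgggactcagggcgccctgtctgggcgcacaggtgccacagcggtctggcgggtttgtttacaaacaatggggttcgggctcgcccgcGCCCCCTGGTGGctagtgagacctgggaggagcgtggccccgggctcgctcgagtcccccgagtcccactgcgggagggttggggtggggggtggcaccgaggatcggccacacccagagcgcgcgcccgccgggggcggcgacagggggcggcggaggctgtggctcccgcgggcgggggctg
Mdm2: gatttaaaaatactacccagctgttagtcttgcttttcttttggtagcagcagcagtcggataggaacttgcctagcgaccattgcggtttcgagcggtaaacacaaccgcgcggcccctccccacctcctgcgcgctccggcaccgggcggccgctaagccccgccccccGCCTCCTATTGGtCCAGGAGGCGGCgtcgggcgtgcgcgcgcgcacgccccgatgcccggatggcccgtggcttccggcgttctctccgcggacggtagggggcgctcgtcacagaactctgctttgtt

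Genes with a higher group mean of at least 496, the median score, are described first. In each direction these are the 12 with the largest called change among genes whose libraries do not overlap between the groups. Some genes of lower score changed more and follow with their lists. Counts of called genes in a list stand against 1.46% higher and 2.56% lower over all genes. Lbr and 2 chains of collagen VI were among the 12 that fell. Lbr, the lamin B receptor of the inner nuclear membrane, which ties heterochromatin to the nuclear envelope, scored 622 and 657 in control and 255 and 250 in knockdown libraries (log2 change -1.34, SE 0.108, adjusted p = 1.34e-08). Its 2 knockdown libraries differed little and lay at 39.5% of the control mean. Lbr overlaps Dnah14 on chromosome 1, and reads of overlapping genes may be shared.

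All 3 chains of classical collagen VI, a microfibrillar collagen around mesenchymal cells, fell. Col6a2 scored 1274 and 1315 against 604 and 582 (-1.13, SE 0.087, adjusted p = 1.13e-08). Col6a3 scored 4110 and 3649 against 2084 and 1671 (-1.05, SE 0.147, adjusted p = 6e-05). Col6a1 scored 4868 and 4602 against 3304 and 3182 (-0.55, SE 0.083, adjusted p = 0.000173). In each of the 3 genes both knockdown libraries lay below both control libraries, and each was called whichever of the 4 libraries was left out.

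Spp1, the secreted phosphoprotein osteopontin, scored 4036 and 4943 in control and 1965 and 2142 in knockdown libraries (-1.12, SE 0.125, adjusted p = 3.7e-06). H19, a maternally expressed non-coding RNA, scored 2806 and 3308 against 1548 and 1838 (-0.85, SE 0.10, adjusted p = 6.7e-06). S1pr3, a receptor for sphingosine-1-phosphate, scored 587 and 650 against 332 and 352 (-0.85, SE 0.134, adjusted p = 0.000269). None of these 3 genes had overlapping libraries. Epdr1 (-1.08), Ceacam1, a cell adhesion molecule (-0.95), and Nt5dc2 (-0.79, overlapping Stab1) fell likewise. Lbr, Col6a2, Col6a3, Spp1, H19, S1pr3, Epdr1, Ceacam1 and Nt5dc2 stayed below an adjusted p of 0.05 without any 1 of the 4 libraries.

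Of these 12 decreases, 3 lost the call when 1 library was left out. Prl2c2, a member of the prolactin family of growth factors (proliferin), scored 13209 and 11640 against 5572 and 8392 (-0.86, adjusted p = 0.0341). Its adjusted p was 0.321 without the first knockdown library, 0.234 without the first and 0.101 without the second control library, and near-identical copies of the gene may share its reads. Dkk2, a secreted regulator of Wnt signalling, scored 778 and 722 against 420 and 408 (-0.85, adjusted p = 0.0083), with an adjusted p of 0.0654 without the second knockdown and 0.0929 without the first control library, while its change stayed between -0.91 and -0.80 without any 1 library. Armcx4 scored 814 and 780 against 532 and 414 (-0.76, adjusted p = 0.00293), and reached 0.0895 without the second knockdown library.

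Among the 12 genes that rose above the same score limit, Serpinb9 had the largest change. This intracellular serpin, an inhibitor of granzyme B, scored 1204 and 1230 in control and 3152 and 3274 in knockdown libraries, 2.64 times the control mean (1.40, SE 0.199, adjusted p = 7.53e-05). Mouse Serpinb9 has close relatives beside it, between which reads may be split. Lrrc15, a leucine-rich repeat membrane protein of activated fibroblasts, scored 333 and 326 against 725 and 686 (1.10, SE 0.218, adjusted p = 0.00322). Clpb, a mitochondrial chaperone of the AAA+ family, scored 590 and 584 against 969 and 948 (0.71, SE 0.069, adjusted p = 3.66e-07).

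Sfn (14-3-3 sigma), an epithelial adaptor protein and p53 target, scored 1041 and 1172 against 1941 and 2157 (0.89, SE 0.151, adjusted p = 0.000668). Dsp, desmoplakin, which links desmosomes to keratin filaments, scored 4044 and 4029 against 7110 and 5829 (0.67, SE 0.111, adjusted p = 0.000458). The knockdown libraries of both genes lay above all control libraries. Fbxo6, an F-box protein for glycoproteins (0.87), Tcaf2 (0.84) and Tubb3, a beta-tubulin of neurons (0.67, overlapping the readthrough gene Gm20388), rose as well. Serpinb9, Lrrc15, Clpb, Sfn, Dsp, Fbxo6, Tcaf2 and Tubb3 were each called without any 1 of the 4 libraries.

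The other 4 of these 12 increases lost the call without some libraries. Zfp534, a zinc finger gene of a large family with similar copies, scored 348 and 370 against 696 and 1156 (1.32, adjusted p = 0.0391), and its adjusted p was 0.345 without the second knockdown, 0.203 without the first control and 0.149 without the second control library. Krt6b, a keratin with close paralogs, scored 244 and 304 against 452 and 546 (0.86, adjusted p = 0.00773), with 0.114 without the second knockdown and 0.144 without the first control library. Papss2, which makes the sulphate donor PAPS, scored 700 and 626 against 1234 and 1162 (0.85, adjusted p = 0.0101). It had 0.0716 and 0.0512 without the first and second knockdown library and 0.114 without the second control library. Hmgn5, a nucleosome-binding protein, scored 1872 and 2223 against 2888 and 3615 (0.66, adjusted p = 0.00414), with 0.110 without the second knockdown and 0.104 without the first control library.

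**Figure D2:**
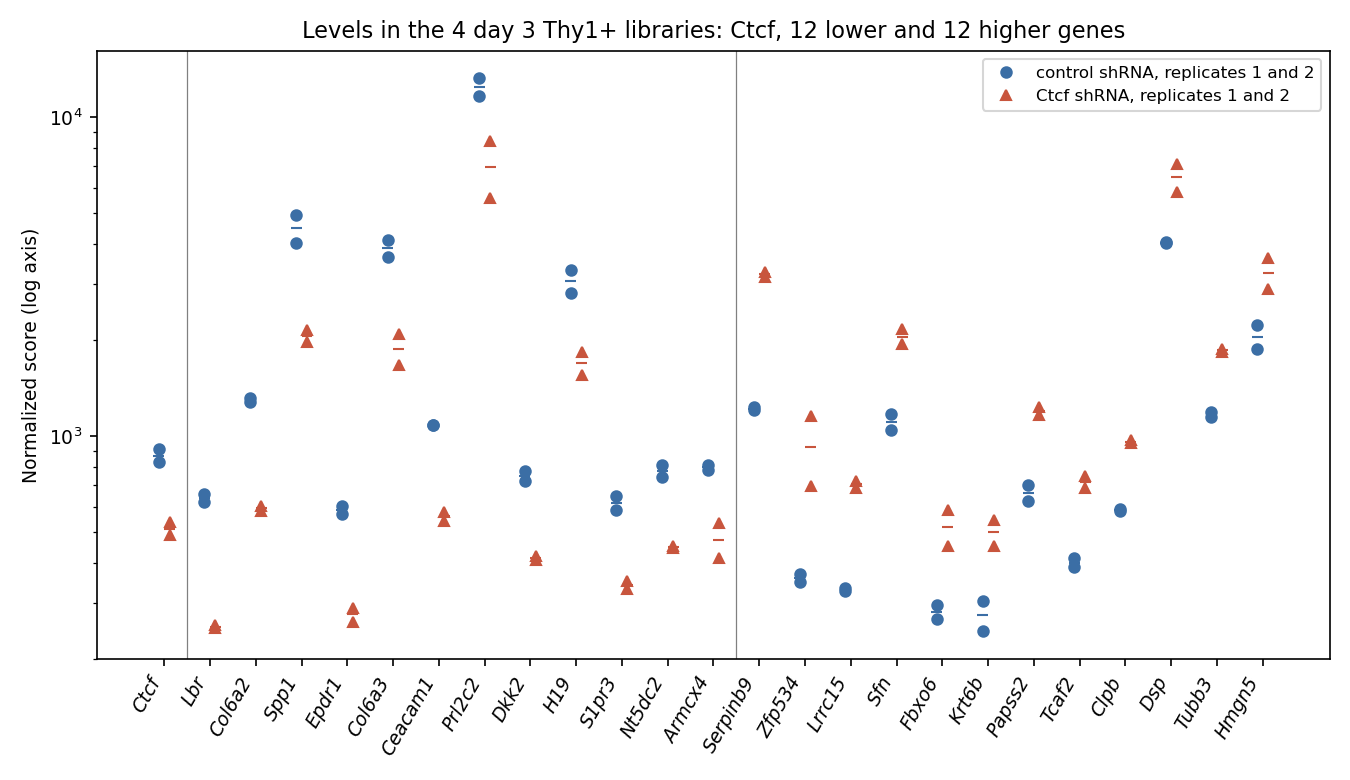
Normalized score (log axis) of Ctcf and of the 12 lower and 12 higher genes with the largest called changes at a score of at least 496, in each of the 4 day 3 Thy1+ libraries. Circles are control and triangles Ctcf shRNA libraries, with bars at the mean of 2. The 12 lower and 12 higher genes were chosen among genes whose groups do not overlap, and the groups of Ctcf did not overlap either. The 2 knockdown libraries lie farthest apart for Prl2c2 (5572 and 8392) and Zfp534 (696 and 1156).

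Some cell cycle genes fell with Ctcf knockdown, 12 of mitosis and 4 of DNA replication. Of 28 genes of mitosis 12 fell and 0 rose (median -0.28), and all 28 had a negative change. Over all genes 2.56% fell and 49.1% had a negative change. Kif11, the kinesin that separates spindle poles, scored 3146 and 3159 against 2214 and 2185 (-0.52, SE 0.086, adjusted p = 0.000514). Ccnb1, the mitotic cyclin B1, scored 1828 and 1855 against 1272 and 1412 (-0.46, adjusted p = 9.61e-05). Ccna2, cyclin A2, scored 2228 and 2194 against 1536 and 1540 (-0.52, adjusted p = 0.00262), and Mybl2, a transcription factor of mitotic genes, 511 and 490 against 384 and 356 (-0.44, adjusted p = 0.000341). For these 4 genes the knockdown libraries lay below both control libraries, and the call held without any 1 library.

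The other 8 mitosis genes that fell were Cenpa, Aurkb, Cenpf, Mki67, Top2a, Kif23, Bub1b and Plk1, with changes of -0.60 (Cenpa) to -0.31 (Plk1). Each lost its call without at least 1 library. In all, 11 mitosis genes were called lower without the first knockdown library, 7 without the second, 8 without the first control library and 6 without the second. The median stayed between -0.35 and -0.21 over 11 alternatives, in which 26 or more of the 28 changes were negative. Of the 28 genes, 23 had knockdown libraries that both lay below both control libraries, and over all genes the groups did not overlap, in either direction, in 38.9%. Mitosis genes are a set that moves together from sample to sample, so these genes do not count as 28 separate observations.

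DNA replication genes showed the same sign with fewer calls. All 34 had a negative change (median -0.20), 4 fell and 0 rose, where 2.56% of all genes fell. Pole, the catalytic subunit of DNA polymerase epsilon, scored 722 and 714 against 488 and 478 (-0.57, SE 0.085, adjusted p = 0.000133) and was called without any 1 library. Rrm2, a subunit of ribonucleotide reductase, scored 3943 and 3490 against 2568 and 2438 (-0.57, adjusted p = 0.00412), with 0.0501 without the second knockdown and 0.0913 without the first control library. Cdt1, a licensing factor (overlapping Gm20388), fell by 0.43 on the log2 scale, with an adjusted p of 0.0587 without the first control library. Mcm5, a helicase subunit, fell by 0.31, with 0.0703 without the first knockdown and 0.172 without the second control library. Without the first control library 2 of the 34 genes were called lower.

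Beyond collagen VI, a few fibroblast genes fell, where 2.56% of all genes fell and 1.46% rose. Of 28 fibroblast matrix genes 4 fell and 0 rose (median -0.12), the fourth being Col1a2, a chain of collagen I, at 39810 and 37647 against 33313 and 28326 (-0.33, adjusted p = 0.0328). Its adjusted p was 0.372 without the second knockdown, 0.239 without the first and 0.0917 without the second control library. The median of this list was -0.01 without the second knockdown library, when 14 of 28 changes were negative. Of 24 mesenchymal regulators and surface genes 3 fell and 21 had a negative change (median -0.18), where 49.1% of all genes did. At least 16 changes were negative in each of 11 alternatives. The 3 were Prrx1, a homeobox factor of limb and skin mesenchyme (-0.39), Cdh11, a mesenchymal cadherin (-0.39), and Nt5e, the surface enzyme CD73 (-0.82). None of these 3 was called without the second knockdown or without the first control library (adjusted p of 0.336 and 0.232 for Prrx1, 0.142 and 0.131 for Cdh11, 0.458 and 0.373 for Nt5e). Without the second control library Cdh11 had 0.0804 and Nt5e 0.0547. Of 24 matrix proteases and inhibitors 2 fell, Adamts2, which trims procollagen (90 and 92 against 44 and 42, -1.06), and Mmp19 (158 and 184 against 102 and 110, -0.68). Adamts2 had an adjusted p of 0.0626 without the second knockdown and 0.0587 and 0.0649 without the first and second control library, and Mmp19 0.0725 without the first knockdown and 0.136 without the second control library.

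A pair of fibroblast growth factors made by mesenchyme fell. Of 33 growth factors and receptors 5 fell and 0 rose (median -0.20), where 2.56% of all genes fell. Fgf10, which signals to neighbouring epithelium, scored 393 and 394 in control and 162 and 160 in knockdown libraries (-1.28, SE 0.212, adjusted p = 0.000462). Fgf7, keratinocyte growth factor, whose promoter stands first above, scored 2786 and 3200 against 1924 and 1882 (-0.65, SE 0.091, adjusted p = 6e-05). Fgf10 and Fgf7 were called without any 1 library, and their libraries did not overlap.

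Kit, a receptor tyrosine kinase, was at scores of 4 and 3 against 0 and 0, too low to carry a fold change, and had an adjusted p of 0.0739 without the first control library. Pdgfd scored 1694 and 2182 against 1250 and 1084 (-0.72, adjusted p = 0.0153), with 0.148 without the second knockdown and 0.235 without the second control library. Hmga1 scored 9927 and 10210 against 8662 and 8335 (-0.24, adjusted p = 0.0273), and its call held in none of the 4 fits that left out a library (adjusted p from 0.0599 to 0.181). Without the second knockdown or either control library 3 genes of the list were called lower.

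In the TGF-beta and BMP list 5 of 36 genes fell and 0 rose (median -0.06), where 2.56% of all genes fell. The 5 genes of the list were Inhbb, the activin B subunit (244 and 206 against 141 and 130, -0.72), the co-receptor Tgfbr3 (345 and 324 against 236 and 185, -0.68) and the BMP antagonist Grem1 (6188 and 5467 against 4036 and 3864, -0.56). The other two were the matrix target Tgfbi (428 and 486 against 306 and 328, -0.52) and the latency protein Ltbp1 (4758 and 4358 against 3924 and 3592, -0.28). Without the first control library 1 of the 36 was called lower, and 3 without the second knockdown or the second control library. Leaving out the first control library took the adjusted p to 0.0504 for Inhbb, 0.0909 for Tgfbr3, 0.0688 for Grem1 and 0.356 for Ltbp1. Without the second knockdown library it was 0.155 for Tgfbr3 and 0.308 for Ltbp1, and without the second control library 0.136 for Tgfbi and 0.0623 for Ltbp1. Tgfbi had 0.0731 without the first knockdown library.

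Of 28 Wnt and Notch genes 4 fell and 1 rose, where 2.56% of all genes fell and 1.46% rose. Nkd2, an antagonist of Wnt signalling, scored 59 and 72 against 19 and 26 (-1.51, SE 0.177, adjusted p = 6.7e-06) and was called without any 1 library. Dkk2 fell, as given above. Sfrp2 scored 48 and 50 against 28 and 20 (-1.02), with an adjusted p of 0.130 without the second knockdown and 0.0634 without the second control library. Dkk3 scored 120 and 144 against 94 and 84 (-0.56) and was called in none of the 4 fits (adjusted p 0.0698 to 0.341). Wnt9a, a ligand, scored 166 and 164 against 339 and 312 (0.97), with 0.0538 without the first knockdown, 0.0519 without the first control and 0.0547 without the second control library. The list held 3 called lower genes without the first knockdown library, 1 without the second, 2 without the first control and 2 without the second.

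Several keratinocyte genes and a few epithelial genes rose, where 1.46% of all genes rose. Of the 9 tested keratinocyte genes 4 rose and 0 fell (median 0.71), and 4 were called in each fit that left out 1 of the 4 libraries. Krt14, a keratin of basal epidermis, scored 60 and 46 in control and 238 and 298 in knockdown libraries (2.32, SE 0.326, adjusted p = 6.29e-05). Krt17 was low in all libraries, at 14 and 11 against 39 and 36 (1.52, adjusted p = 0.00115). Perp, a desmosomal membrane protein, scored 7402 and 7436 against 9364 and 9702 (0.36, SE 0.065, adjusted p = 0.00111), and Sfn rose as given above. The summed score of the list, most of it from Perp and Sfn, was 9337 and 9823 in control and 12867 and 13584 in knockdown libraries. Of the 9 genes, 2 had a negative change. These keratins have related copies, and reads could be split between them.

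Of 24 epithelial genes 3 rose and 0 fell (median 0.10), where 1.46% of all genes rose. Cldn4, a tight junction claudin, scored 53 and 66 against 108 and 108 (0.86, SE 0.109, adjusted p = 1.46e-05) and Dsp rose as above, both also without any 1 library. St14, the protease matriptase, scored 344 and 334 against 494 and 419 (0.42, adjusted p = 0.0097), with 0.169 without the first knockdown, 0.0587 without the first control and 0.0924 without the second control library. Without the first knockdown or the first control library 2 of the list were called. Thy1 and the summed matrix score overlapped between the groups. Both groups were sorted on Thy1, however, and a sum gives most weight to genes of high score. Of the 28 matrix genes, 18 had a negative change. Neither value can show whether the kind of cells stayed the same. Whether a share of cells or the level per cell changed cannot be told from bulk RNA, in which fewer cells of a type and less RNA per cell look alike.

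A few p53 targets rose by small amounts. Of 21, 3 were called higher and 0 lower, and 19 had a positive change (median 0.14). Over all genes 1.46% were called higher and 50.1% had a positive change. Bbc3 (Puma), a pro-apoptotic BH3-only protein, scored 254 and 284 against 360 and 396 (0.49, SE 0.131, adjusted p = 0.0303). Pmaip1 (Noxa), of the same class, scored 1555 and 1660 against 2216 and 2110 (0.43, SE 0.113, adjusted p = 0.0275). Mdm2, the ubiquitin ligase of p53, scored 6241 and 5584 against 7736 and 6407 (0.25, SE 0.069, adjusted p = 0.0342). Bbc3 and Mdm2 are those with the motif in the promoters above.

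These 3 calls were fragile. Bbc3 had adjusted p-values of 0.0591 and 0.211 without the first and second knockdown library and 0.263 and 0.0707 without the first and second control library. For Pmaip1 they were 0.147, 0.0883, 0.213 and 0.0839 in the same order. Mdm2 had 0.454 without the first knockdown and 0.370 without the second control library. Cdkn1a (p21), the cell cycle inhibitor most often read for p53, scored 5911 and 6247 against 6779 and 6476 (0.12, adjusted p = 0.486) and was not called.

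Among CDK inhibitor and senescence genes 1 of 12 rose and 2 fell, where 1.46% of all genes rose and 2.56% fell. Igfbp4, a binding protein of insulin-like growth factors whose promoter is printed above, scored 843 and 775 against 560 and 560 (-0.53, adjusted p = 0.00797), with 0.0562 without the second knockdown and 0.115 without the first control library. Igfbp5, its relative, scored 394 and 378 against 170 and 180 (-1.14, adjusted p = 0.0237). The CDK inhibitor Cdkn2b (p15) scored 678 and 644 against 872 and 888 (0.41, adjusted p = 0.0278). Neither Igfbp5 (0.0967 to 0.147) nor Cdkn2b (0.0924 to 0.187) was called in any fit that left out 1 of the 4 libraries.

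Immediate early genes went both ways, with 4 of 25 higher and 2 lower, where 1.46% of all genes rose and 2.56% fell. Klf10, a factor induced by TGF-beta, scored 690 and 704 against 1145 and 1036 (0.64, SE 0.075, adjusted p = 6.7e-06) and was called without any 1 library. Atf3, a stress-induced factor, scored 239 and 211 against 334 and 366 (0.64, adjusted p = 0.00313), with 0.0518 without the second knockdown and 0.0707 without the second control library. Ier2 scored 705 and 696 against 861 and 960 (0.38, adjusted p = 0.0049), with 0.103 and 0.0518 without the same libraries. Dusp1 rose by 0.34 (adjusted p = 0.00369, 0.0804 without the second control library). Egr3 was low, at 46 and 33 against 14 and 10 (-1.64, adjusted p = 0.00218, 0.0595 without the first control library), and Nr4a1 fell by 0.29 (adjusted p = 0.0458, 0.0543 to 0.323 without 1 library). The number of higher genes was 2 without the second knockdown and 1 without the second control library.

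Genes that work with CTCF changed little. Of 23 tested genes of CTCF, cohesin and the remodellers of its sites 2 fell, Ctcf itself and Rad21, the kleisin subunit of cohesin, at 2080 and 2062 against 1742 and 1694 (-0.27, SE 0.059, adjusted p = 0.00717). Rad21 had 0.0724 without the second knockdown, 0.0685 without the first control and 0.0519 without the second control library. Stag1, another cohesin subunit, scored 4542 and 4047 against 5712 and 4895 and did not pass the test (0.30, adjusted p = 0.0505). Smarca5, the ISWI remodeller SNF2H, scored 103732 and 105568 against 100114 and 105568 (-0.03, SE 0.114, adjusted p = 0.983).

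Of 36 chromatin regulators 4 fell and 0 rose (median -0.10), where 2.56% of all genes fell. Besides Lbr, the 4 regulators were Uhrf1, which brings Dnmt1 to replicating DNA (1200 and 1262 against 951 and 927, -0.39, adjusted p = 0.00192), Ezh2, the methyltransferase of the Polycomb repressive complex (-0.28), and Setdb1, an H3K9 methyltransferase (-0.27). Ezh2 was called in none of the 4 fits (adjusted p 0.0639 to 0.207). Setdb1 had 0.332 without the second knockdown and 0.400 without the first control library. Without either of these 2 libraries 2 of the list were called.

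Gene clusters in which CTCF sites are well known were read next. The clustered protocadherins, whose promoters are chosen through CTCF loops, had 0 of 28 genes called by limma, although all 28 changes were negative (median -0.19). The 21 gamma genes lay between -0.21 and -0.14 (lowest adjusted p 0.176). They share their last exons, so their scores are not separate measurements. The 7 others ranged from -1.34 to -0.05 (lowest adjusted p 0.212). Of 29 Hox genes 0 were called by limma (median -0.03, changes from -0.51 to 0.27).

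At the H19 and Igf2 locus, where CTCF bound to the imprinting control region between the genes insulates Igf2 from shared enhancers on the maternal chromosome, both genes were lower. H19 (chromosome 7, 142575529 to 142578143, GRCm38) fell as given above. Igf2, a paternally expressed growth factor (142650766 to 142666816), scored 2552 and 2352 against 1827 and 1742 (-0.46, SE 0.116, adjusted p = 0.0217), with 0.0634 and 0.141 without the first and second knockdown library and 0.203 and 0.0645 without the first and second control library. Igf2 overlaps Gm49394. On the other side of H19, Mrpl23, a mitochondrial ribosomal protein, scored 229 and 254 against 133 and 154 (-0.75, adjusted p = 0.00454). Reads were not split by allele, so imprinting itself was not measured. Of the 31 imprinted genes 2 fell and 1 rose, where 2.56% of all genes fell and 1.46% rose. The 1 that rose was Plagl1, a zinc finger factor (2222 and 1928 against 3050 and 2546, 0.43, adjusted p = 0.0403). Plagl1 had 0.314 without the first knockdown, 0.0635 without the first control and 0.338 without the second control library.

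Called genes were also read by position. Of 13426 pairs of neighbouring tested genes 35 had both genes called, 16 with both lower, 7 with both higher and 12 with opposite signs. Over all genes 4.02% were called. The number of pairs to expect from that share was not worked out, so 35 cannot be read as many or few. Col6a2 and Col6a1 are neighbours on chromosome 10 (76595762 to 76726168), and both fell. Krt14 and Krt17 are neighbours among tested genes on chromosome 11 (100203162 to 100261029), and both rose. Serpinb9 and its relative Serpinb9b are neighbours on chromosome 13 (33003250 to 33041884), where Serpinb9b changed by 0.53. Top2a (-0.42) and Igfbp4 (-0.53) lie 17055 bases apart on chromosome 11, and both fell. Hmox1, heme oxygenase, which rose (2372 and 2608 against 3414 and 3631, 0.50, adjusted p = 0.00218), lies 8980 bases from Mcm5, which fell. The share of called genes was between 2.52% (chromosome 17) and 5.46% (chromosome 8) on the autosomes and 3.42% on the X chromosome. These pairs are a description without a test, and pairs of overlapping genes may share reads.

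A pair of macrophage markers fell in the knockdown libraries. Of 14 tested markers 2 fell and 10 had a negative change (median -1.06), where 2.56% of all genes fell and 49.1% had a negative change. Lyz2, lysozyme of myeloid cells, scored 396 and 481 in control and 83 and 141 in knockdown libraries (-2.0, SE 0.407, adjusted p = 0.00398). The complement gene C1qa scored 9 and 8 against 0 and 0 (adjusted p = 0.0106). The summed score of the 14 genes was 3267 and 3392 against 2044 and 1958. C1qb (14 and 14 against 2 and 3), Adgre1 (11 and 20 against 4 and 2) and Cd53 (663 and 671 against 104 and 286) were lower without being called, and Csf1r (110 and 142 against 104 and 147) and Laptm5 (719 and 712 against 824 and 700) overlapped between the groups.

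Lyz2 had an adjusted p of 0.0723 without the first knockdown and 0.0561 without the second control library, and C1qa of 0.0546 to 0.0929 without 1 library. Of the 14 markers 0 were called lower without either of those 2 libraries, 1 without the second knockdown or first control library, 3 in the fit to the 12 day 3 libraries and 5 with a pseudocount of 8. Mpeg1, a pore-forming protein of macrophages that is not on the list, scored 71 and 70 against 21 and 11 (-2.14, adjusted p = 0.000897). Apoe, apolipoprotein E, which macrophages and other cells make, scored 157 and 164 against 62 and 80 (-1.18, SE 0.152, adjusted p = 2.06e-05). Mpeg1 and Apoe were called without any 1 library. Neither is on the list, and both were named for their difference from day 0 cells. That test uses the same day 3 libraries, so these genes add no separate evidence to the list. Day 0 cells had far more of the 3 genes, with Lyz2 at 2732 to 4841, Mpeg1 at 674 to 900 and Apoe at 924 to 1458 over the 4 libraries. The part of the macrophage genes in the other changes was not tested.

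**Figure D3:**
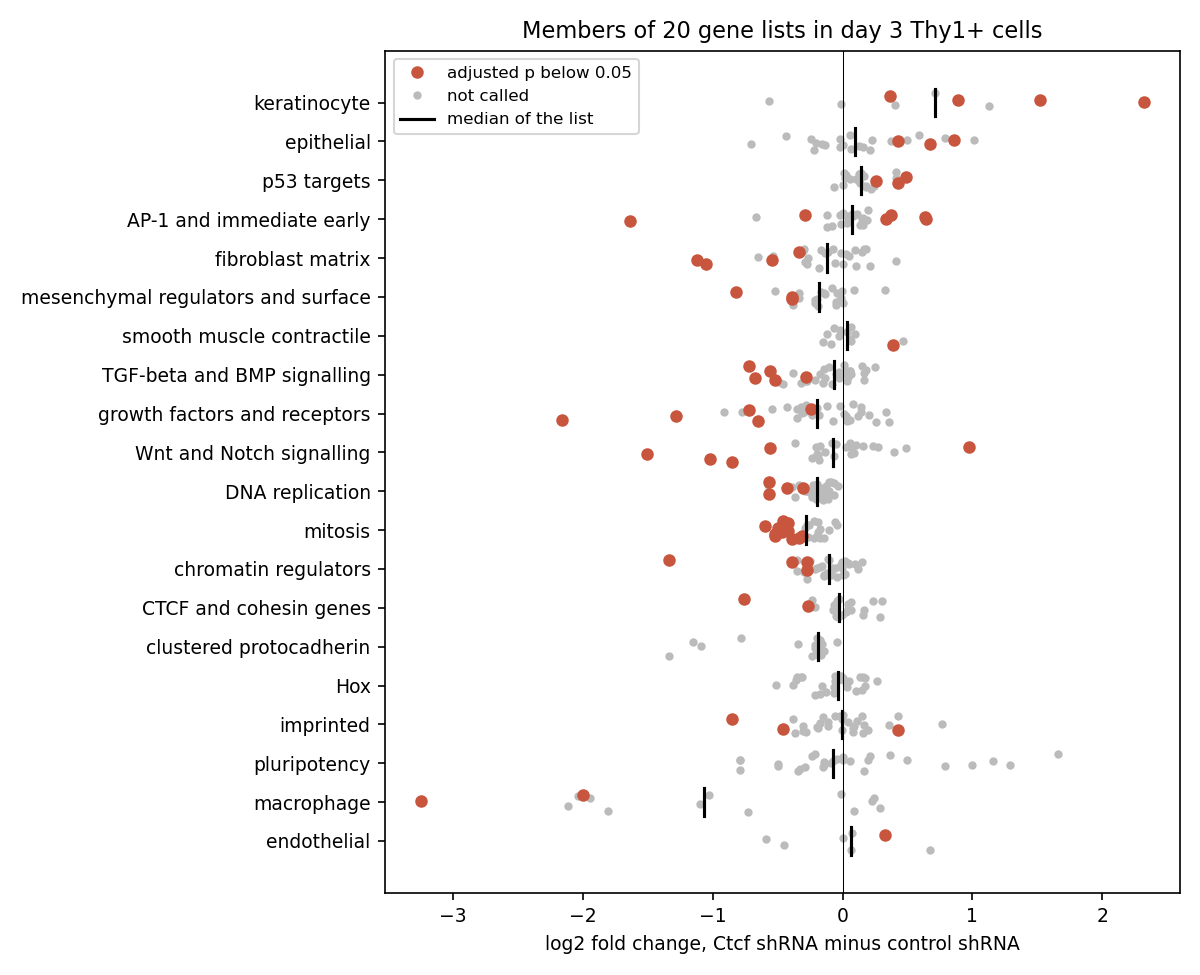
Log2 fold change (x axis) of each tested member of 20 gene lists (y axis), Ctcf shRNA minus control shRNA in day 3 Thy1+ cells. Large red points have an adjusted p below 0.05, grey points do not, and the black bar is the list's median. All points of the mitosis and DNA replication lists lie left of 0, the keratinocyte median lies at 0.71 and the macrophage median at -1.06.

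Other cell types and pathways showed at most 2 calls per list, where 4.02% of all genes were called. Of 12 neural genes Tubb3 and Stmn2, a tubulin-binding protein (4472 and 4404 against 5911 and 6387, 0.47, adjusted p = 0.000996), rose, both also without any 1 library. The neural list as a whole did not rise, with 5 positive and 7 negative changes (median -0.08). Of 7 endothelial genes the receptor Tek rose (1094 and 1138 against 1474 and 1324, 0.32, adjusted p = 0.0375), with 0.268 without the first knockdown, 0.234 without the first control and 0.118 without the second control library. Of 13 smooth muscle genes Actg2 rose (2153 and 2072 against 2902 and 2646, 0.39, adjusted p = 0.0495), in none of the 4 fits that left out a library (0.0920 to 0.257). Of 6 skeletal muscle genes 0 were called by limma.

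Xaf1 rose from 128 and 142 to 296 and 281 (1.09, adjusted p = 0.000257), alone among 23 interferon-stimulated genes. Xaf1 was called without any 1 library. Hmox1 was the 1 called gene of 15 NRF2 targets (0.0587 without the first control library). Mthfd2, of mitochondrial folate metabolism, was the 1 called of 27 ATF4 and unfolded protein response genes (-0.47, adjusted p = 0.00787), with 0.154 without the first knockdown and 0.142 without the second control library. Vegfa was the 1 called of 25 glycolysis and hypoxia genes (-0.39, adjusted p = 0.0262), with 0.322 without the second knockdown and 0.303 without the first control library. Of 25 cytokines and chemokines Cx3cl1 fell (-0.65, adjusted p = 0.0171) and Cxcl14 rose (0.48, adjusted p = 0.034). Cx3cl1 had 0.133 without the second knockdown, 0.0738 without the first and 0.139 without the second control library, and Cxcl14 0.0644 to 0.222 without 1 library. No gene was called by limma among 38 ribosomal protein, 31 oxidative phosphorylation, 16 histone and 15 heat shock genes. Since 4.02% of all genes were called, 1 call in a list of 25 or 27 genes is near the share of the whole.

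The genes changed in day 3 Thy1+ cells were then read in the other 10 populations, which have their own control libraries. The labels do not say whether populations sorted on the same day came from the same cultures, so they may not be independent. The 2 other day 3 populations carried most signs: of the 196 genes that rose, 96.9% were above 0 in SSEA1-Thy1- and 94.9% in SSEA1+ cells, and of the 345 that fell 97.7% and 88.1% were below 0. In day 6 Thy1+ cells the shares were 83.7% and 88.7%, and in day 0 cells, before OSKM, 63.8% and 66.1%. Over all genes the share of either sign in these 4 populations was between 46.6% and 52.4%. In the remaining populations the share of genes that rose ran from 67.3% (day 6 SSEA1+) to 82.1% (day 9 SSEA1-Thy1-). That of genes that fell ran from 61.2% (day 12 GFP+) to 79.7% (day 9 Thy1+). Over all genes the share of either sign in those populations was between 44.3% and 55.2%. The median change of the genes that fell was -0.43 in day 3 SSEA1-Thy1-, -0.32 in day 3 SSEA1+, -0.44 in day 6 Thy1+ and -0.10 in day 0 cells, against -0.55 where they were called.

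**Figure D4:**
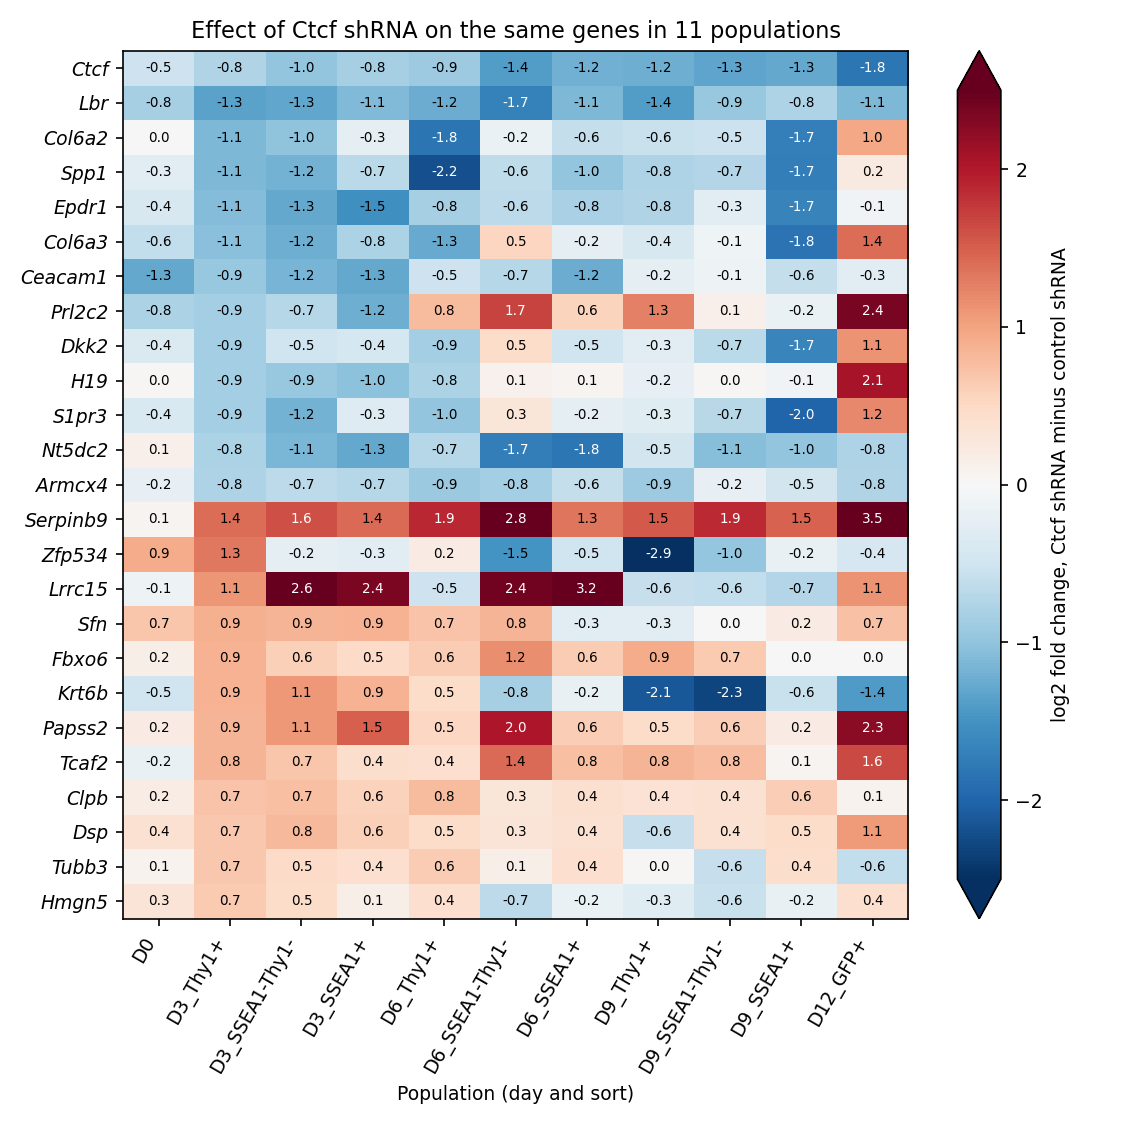
Log2 fold change of Ctcf shRNA minus control shRNA (colour and number) for Ctcf and the 12 lower and 12 higher genes with the largest called changes of day 3 Thy1+ cells at a score of at least 496 (rows) in all 11 populations (columns). Serpinb9 is above 0 in every population and Lbr below 0 in every population, while H19 is near 0 on day 0 and well above 0 in day 12 GFP+ cells and Lrrc15 changes sign.

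Against day 0 cells the knockdown effect differed for 291 genes (2.16%), above the day 0 effect for 147 (1.09%) and below it for 144 (1.07%). At day 0 Col6a2 scored 1222 and 1274 in control and 1230 and 1285 in knockdown libraries, so that its decrease differed by -1.14 (SE 0.123, adjusted p = 1.28e-05). Nt5dc2 differed by -0.92 (adjusted p = 1.28e-05) and H19 by -0.88 (adjusted p = 0.000962), with a day 0 change of 0.13 and 0.03. Serpinb9, at 1450 and 1450 against 1586 and 1445 on day 0, differed by 1.34 (adjusted p = 0.0101), and Clpb by 0.51 (adjusted p = 0.00472). Apoe differed by -1.52 (adjusted p = 0.000155). These 6 differences held without any 1 of the 8 libraries involved.

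For Ctcf itself the day 3 and day 0 effects were not told apart (difference -0.24, SE 0.122, adjusted p = 0.36). The 2 day 0 knockdown libraries lay farther apart than those of any other group of the table (0.306 on the measure of spread given above). Without the first of them 1487 genes differed, without the second 182, without the first or second day 3 control library 169 and 153, and without the first day 3 knockdown library 182. Of the 291 genes 66 were called without any 1 of the 8 libraries.

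Against SSEA1+ cells of the same day 27 genes differed (0.201%), 5 above (0.0372%) and 22 below (0.164%). Col6a2 was at 279 and 284 in control and 234 and 238 in knockdown SSEA1+ cells, a difference of -0.87 (SE 0.123, adjusted p = 0.000957). Ltbp1 was 784 and 854 against 1134 and 1033 in SSEA1+ cells, a difference of -0.68 (SE 0.110, adjusted p = 0.00397). Both differences held without any 1 of the 8 libraries, as did 6 of the 27. Nt5dc2 had the more negative change in SSEA1+ cells (difference 0.50, adjusted p = 0.0394), a call lost without 6 of the 8 libraries (adjusted p up to 0.23 without the first day 3 Thy1+ control library). For Lrrc15 the effect was 1.10 in Thy1+ and 2.36 in SSEA1+ cells, and the difference of -1.26 did not pass the test (adjusted p = 0.0938). The count was 10 without the first day 3 Thy1+ control library, 15 and 50 without the first and second SSEA1+ control library, and 2 in a fit to the 12 day 3 libraries.

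Against Thy1+ cells of day 6, the same sort later in the process, 219 genes differed (1.63%), 136 above (1.01%) and 83 below (0.617%). Slc16a3, a lactate transporter, scored 784 and 700 in control and 29 and 34 in knockdown cells on day 6, but 44 and 48 against 41 and 31 on day 3 (difference 4.16, SE 0.242, adjusted p = 1.36e-11). For 2 collagen VI chains the change was more negative on day 6. Col6a2 scored 10958 and 11012 against 2999 and 3188 there (difference 0.70, adjusted p = 0.00194), and Col6a1 19722 and 19054 against 7028 and 7487 (difference 0.87, adjusted p = 5.62e-05). For Col6a3 the difference was 0.21 (adjusted p = 0.732). Spp1 was at 38084 and 35944 against 7700 and 8554 on day 6 (difference 1.07, adjusted p = 0.00105).

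Several genes went opposite ways on the 2 days of Thy1+ cells. Atf3, higher on day 3, was lower on day 6 (598 and 622 against 294 and 296, difference 1.68, adjusted p = 1.95e-06). Lrrc15, higher on day 3, scored 359 and 340 against 230 and 256 on day 6 (difference 1.62, adjusted p = 0.00468). Lyz2, lower on day 3, scored 40 and 31 against 110 and 124 on day 6 (difference -3.70, adjusted p = 0.000488). Mcm5, lower on day 3, scored 790 and 730 against 1050 and 1042 on day 6 (difference -0.77, adjusted p = 2.21e-05), and Cdt1 327 and 336 against 399 and 388 (difference -0.67, adjusted p = 0.000898). All differences of Slc16a3, Col6a2, Col6a1, Spp1, Atf3, Lrrc15, Lyz2, Mcm5 and Cdt1 against day 6 held without any 1 of the 8 libraries, as did 65 of the 219. The count was 116 without the first day 3 knockdown, 99 without the second day 3 control, 130 without the second day 6 knockdown and 119 and 134 without the first and second day 6 control library.

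**Figure D5:**
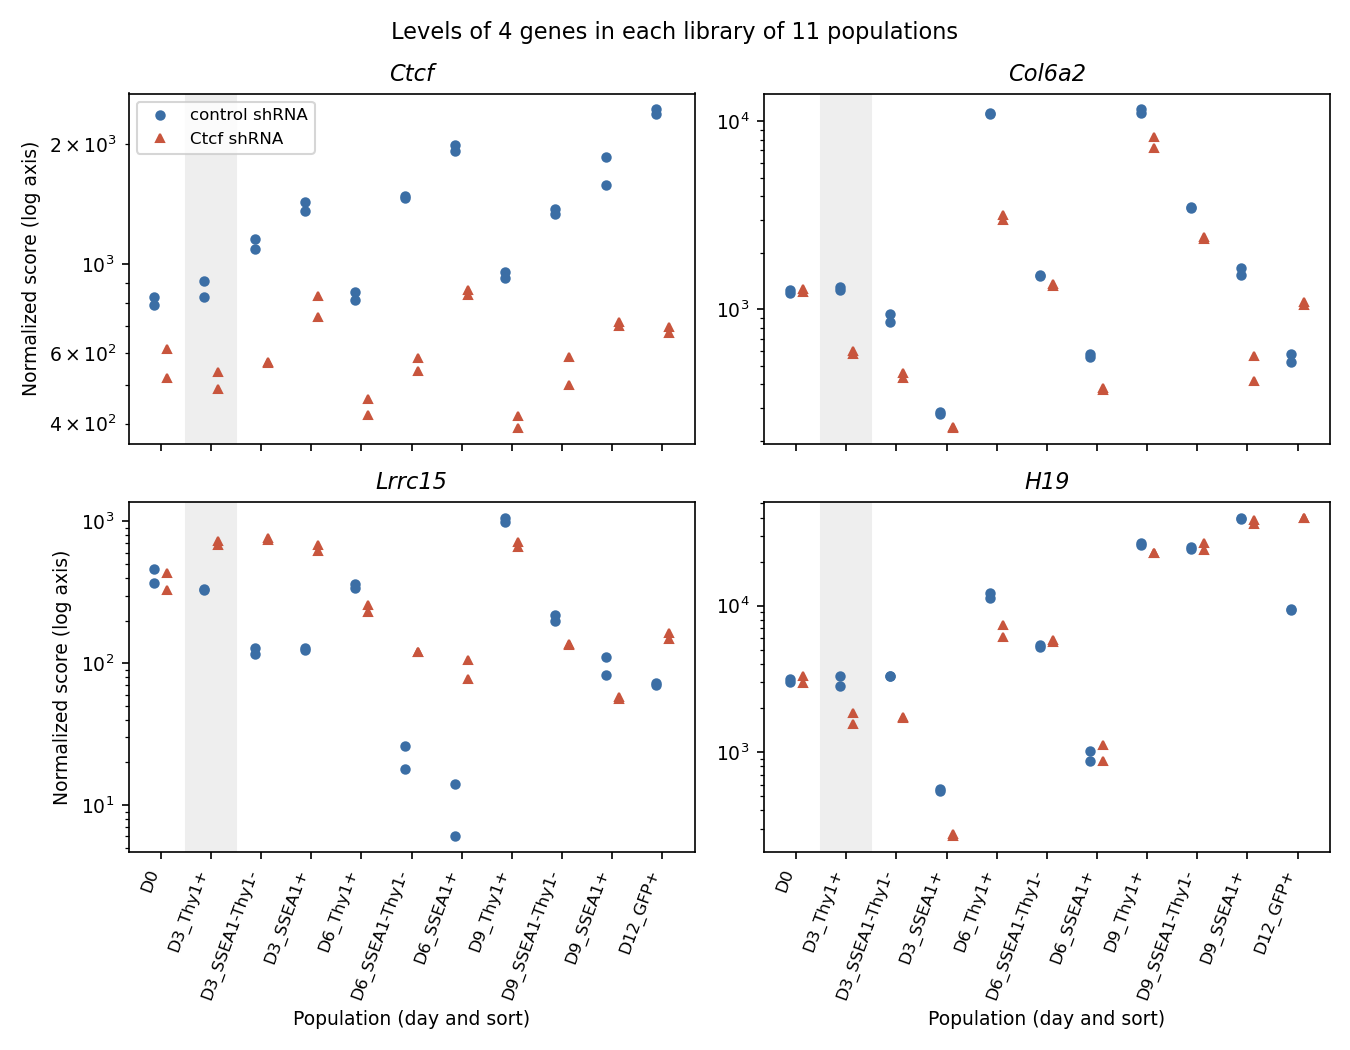
Normalized score (log axis) of Ctcf, Col6a2, Lrrc15 and H19 in each library of the 11 populations (x axis), circles for control and triangles for Ctcf shRNA. The day 3 Thy1+ libraries are shaded. Ctcf is lower with its shRNA in every population, the Col6a2 controls rise from 1274 and 1315 in day 3 to 10958 and 11012 in day 6 Thy1+ cells, and the Lrrc15 groups change order between these 2.

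Set side by side without a test, control cells of day 0 and day 3 show what the knockdown acted on. Pou5f1 scored 273 and 256 in day 0 and 5548 and 4544 in day 3 Thy1+ control cells, and Sox2 465 and 374 against 5272 and 5160. Col6a2 scored 1222 and 1274 on day 0 and 1274 and 1315 on day 3, and Col6a1 2338 and 2400 against 4868 and 4602. Krt6b was at 0 and 1 on day 0 and at 244 and 304 on day 3, and Lyz2 was at 2732 and 3215 against 396 and 481. In day 3 SSEA1+ control cells Pou5f1 was at 13126 and 14652 and Col6a2 at 279 and 284, so Thy1+ cells lay between day 0 and SSEA1+ cells in the first of these genes.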

How the data were processed

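The deposited table of sorted cells holds a score per gene and library. Per the submitters' processing notes the authors used Trim Galore, FastQC and RSEM with the GRCm38 (mm10) genome; versions are not given in the sources used here. The deposited score appears, from its values, to be a rounded tag count after normalization by the authors, since all libraries share nearly the same total. The normalization, the strand setting and the depth are not given in the sources used here, so no count model was used. Groups came from the sample titles, and 0 per-library columns were without a sample.

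log2(score + 1) of all 44 libraries was modelled with limma 3.58.1 (R 4.3.3), with 1 coefficient for each of 22 groups and a mean-variance trend (22 residual degrees of freedom). A gene needed scores of 10 or more in 2 libraries, which every gene met. Differences between populations are interaction contrasts in the same fit. Of 13451 gene identifiers 13447 matched GENCODE M21, which gave the coordinates. On simulated data the fit called 65.2%, 92.5% and 98.5% of genes changed by 0.5, 1 and 2 on the log2 scale, with 9 false calls among unchanged genes. Changes were planted only in genes above a score limit, and the noise of a gene had the same spread in all groups. The day 3 Thy1+ knockdown libraries differed more than those of most groups (0.228, rank 3 of 22). The simulated rates therefore cannot give the power or the false calls of the real comparison.

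Named genes are Ctcf, Smarca5, Thy1 and the 4 factors, the 12 called genes per direction with the largest change whose libraries do not overlap and whose higher mean is at least the median score of 496, up to 4 called members per list with the largest change, and 4 genes per direction and difference test. Clone and predicted symbols were left out. Other called list members, and genes beside a named gene, were named after their values were seen. The comparison, the 37 gene lists and the tests were chosen with earlier results of these data known. Lists are described by counts and medians and were not tested. Alternatives were another pseudocount, filters, scalings, sets of libraries, variance models, a replicate block and leaving out each library. The result of 1 called gene and its list is not reported here.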

Additional observations from a re-analysis of the deposited data

Results flagged for a closer look

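Differences are the Ctcf knockdown effect in day 3 Thy1+ cells minus that in another population, in log2 units, with limma's adjusted p. The populations compared share no library, but the labels do not say whether they share cultures. The genes given below passed that test. Named genes were chosen by their day 3 effect or by these same tests, so differences among them are more frequent by selection. No explanation was tested.

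Against day 0 cells, 40 of the 107 named genes differed, where 2.16% of all genes did. Effects more positive in day 3 Thy1+ cells were those of Serpinb9 (1.34, adjusted p = 0.0101), Krt6b (1.36, adjusted p = 0.00702, at scores of 0 or 1 on day 0), Lrrc15 (1.22, adjusted p = 0.034), Tcaf2 (1.02, adjusted p = 0.017), Fbxo6 (0.72, adjusted p = 0.0405) and Clpb (0.51, adjusted p = 0.00472). Osbp2 (1.96, adjusted p = 0.0131), Shisa8 (1.80, adjusted p = 0.00702), Zfp968 (1.69, adjusted p = 0.0406) and Rapgef4 (1.39, adjusted p = 0.00464) differed through a day 0 change of -1.39, -1.74, -1.67 and -1.17. Osbp2 and Shisa8 had day 0 scores of 1 to 13. More negative effects were those of Col6a2 (-1.14, adjusted p = 1.28e-05), Nt5dc2 (-0.92, adjusted p = 1.28e-05), H19 (-0.88, adjusted p = 0.000962), Spp1 (-0.84, adjusted p = 0.00992) and Epdr1 (-0.69, adjusted p = 0.0306). The macrophage-expressed Lyz2 (-2.54, adjusted p = 0.0157), Mpeg1 (-2.40, adjusted p = 0.0131) and Apoe (-1.52, adjusted p = 0.000155) also had the more negative effect, as did Klra2 (-2.77, adjusted p = 0.0355), a gene with close paralogs whose day 0 control libraries scored 48 and 173. Lrrc15, Fbxo6, Tcaf2, Spp1, Epdr1, Osbp2, Zfp968, Klra2, Lyz2 and Mpeg1 lost the call without at least 1 of the 8 libraries. Members of the gene lists that also differed upward were Krt17 (2.97), Krt14 (1.94), Atf3 (1.30), Bbc3 (1.12), Cxcl14 (0.83), Hmox1 (0.75), Tek (0.62), Stmn2 (0.56) and Klf10 (0.42). C1qa (-3.96), Sfrp2 (-1.47), Nkd2 (-1.44), Tgfbi (-0.87), Ccna2 (-0.71), Aurkb (-0.62), Gpnmb (-0.58), Kif11 (-0.57), Mcm5 (-0.57), Col6a1 (-0.53) and Ezh2 (-0.41) differed downward. Of these, Krt17, Atf3, Bbc3, Hmox1, Stmn2, Nkd2, Tgfbi, Kif11 and Mcm5 kept the call without any 1 of the 8 libraries.

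Against day 3 SSEA1+ cells, 9 of the named genes differed, where 0.201% of all genes did. They were Col6a2 (-0.87, adjusted p = 0.000957), Pdgfc, a platelet-derived growth factor (-1.01, adjusted p = 0.0394), Eml1 (-0.76, adjusted p = 0.00535), Ltbp1 (-0.68, adjusted p = 0.00397), Slc4a3 (0.63, adjusted p = 0.0147), Nt5dc2 (0.50, adjusted p = 0.0394), Inhbb (-1.04, adjusted p = 0.0108), Tgfbi (-0.76, adjusted p = 0.0441) and Fgf10 (-1.50, adjusted p = 0.0239). Pdgfc, Eml1, Slc4a3 and Nt5dc2 lost the call without at least 1 of the 8 libraries, with adjusted p up to 0.248, 0.0628, 0.0977 and 0.23. So did Inhbb, Tgfbi and Fgf10, with adjusted p up to 0.0937, 0.225 and 0.118.

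Against day 6 Thy1+ cells, 22 of the named genes differed, where 1.63% of all genes did. Slc16a3 (4.16, adjusted p = 1.36e-11), Lum, a matrix proteoglycan (2.38, adjusted p = 0.0172), and Sned1 (2.04, adjusted p = 3.24e-06) were much higher in the day 6 control than in the day 6 knockdown libraries. Atf3 (1.68, adjusted p = 1.95e-06), Lrrc15 (1.62, adjusted p = 0.00468), Spp1 (1.07, adjusted p = 0.00105) and Col6a2 (0.70, adjusted p = 0.00194) also differed upward. Prl2c2 (-1.65, adjusted p = 0.00678), the muscle actin Acta1 (-1.47, adjusted p = 2.15e-05), Gpnmb (-1.13, adjusted p = 7.61e-05) and Larp1b (-1.12, adjusted p = 0.00161) differed downward. Lum and Prl2c2 lost the call without at least 1 of the 8 libraries, with adjusted p up to 0.0862 and 0.0707. The other 11 were Vegfa (0.92), Col6a1 (0.87), Ier2 (0.83), Slc4a3 (0.52) and Klf10 (0.51) upward, and Lyz2 (-3.70), Nkd2 (-1.12), Cxcl14 (-0.99), Mcm5 (-0.77), Cdt1 (-0.67) and Uhrf1 (-0.48) downward. Slc4a3, Klf10, Nkd2 and Uhrf1 lost the call without at least 1 of the 8 libraries.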

How the results depend on the processing

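The number called was 618 with a pseudocount of 8, 481 with a mean score of at least 50, 542 with quantile normalization, 534 with median centring, 541 without the mean-variance trend and 529 with robust empirical Bayes. The scores already had nearly the same distribution, so quantile normalization and median centring could change little. The set of libraries mattered more. The 4 libraries alone gave 0 called genes (0 higher, 0 lower) and Ctcf an adjusted p of 0.293 at -0.76. That fit has fewer samples to estimate the spread. The replicate differences of its knockdown and control groups, 0.228 and 0.160, ranked 3 and 6 from the widest of 22 groups. The part of either in the loss of calls was not tested. The 12 day 3 libraries gave 258 (111 higher, 147 lower), and 2 for the difference from SSEA1+ cells. The replicate numbers share no stated meaning (correlation across genes of the replicate differences 0.026), and a fit with the replicate number as a block called 634 genes, 471 of them among the 541, and 42 for the difference from SSEA1+ cells. Leaving out 1 library gave 223 to 405 called genes, 86 to 114 higher and 133 to 300 lower. It gave 153 to 1487 for the difference from day 0 cells, 10 to 50 from SSEA1+ and 99 to 273 from day 6 Thy1+ cells. The cause of these ranges was not tested. Genes that were not called changed sign when 1 library was left out: Smarca5 (-0.064 to 0.013), Thy1 (-0.12 to 0.17), Pou5f1 (-0.24 to 0.35), Klf4 (-0.21 to 0.32) and Sox2 (-0.0046 to 0.18). Scores carry no depth, so the precision of low genes such as Kit and C1qa is unknown.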
